A study of Mus musculus with 12 samples.

Results

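The dual-specificity MAP kinase phosphatases are enzymes that remove phosphate from both the threonine and the tyrosine of the activation loop of MAP kinases. Their RNA was followed through 9 genes, Dusp1, Dusp2, Dusp3, Dusp4, Dusp5, Dusp6, Dusp7, Dusp10 and Dusp16, picked by symbol. All 9 were found among the 23234 genes of the expression table, and all 9 passed the filter of a mean of at least 1 FPKM (fragments per kilobase of transcript, scaled to the size of the library) that 10305 genes passed.

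The data are RNA-seq profiles of total RNA from primary mouse acute myeloid leukaemia (AML) cells of the genotype NRASG12V/Mll-AF9, so that mutant NRAS and the MLL-AF9 fusion are present in every group, DMSO included. The strain was (FVB/n X C57/BL/6J) F1, and the cells were kept in RPMI medium with serum and GM-CSF. For 24 h they received 20 µM PD325901, 26 µM RAD001, 20 µM GDC0941 or the vehicle DMSO, with 3 libraries in each group. PD325901 inhibits MEK, the kinase that activates ERK. RAD001, or everolimus, inhibits mTOR, and GDC0941 is a PI3 kinase inhibitor. The labels do not give the ages of mice, what drives either oncogene, or whether the replicates of a group are separate leukaemias or cultures. The p-values therefore measure only the spread between these libraries, which may be technical. In bulk RNA, fewer cells of one type and less RNA per cell cannot be told apart.

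MAP kinase phosphatases act as brakes on the kinases ERK, JNK and p38. Dusp1, Dusp2, Dusp4 and Dusp5 encode nuclear enzymes whose transcription is switched on by growth factors or stress. Dusp6 and Dusp7 encode cytoplasmic enzymes that prefer ERK. Dusp10 and Dusp16 encode enzymes that prefer JNK and p38. Dusp3 encodes a small enzyme that lacks the kinase-binding domain of the others. Because ERK signalling induces several of these genes, Dusp6 above all, their RNA is widely used as a readout of ERK activity, including in myeloid cells.

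The values are FPKM, which are scaled for transcript length, so levels can be compared between genes. Depth in reads is unknown, but the smallest steps of the values put relative depth between 0.846 and 1.21 of that of DMSO replicate 1. Libraries of 1 group had Spearman correlations of 0.966 to 0.996 over the genes tested, and libraries of different groups 0.875 to 0.965. Of 12 myeloid markers 11 were in the table and all 11 averaged at least 1 FPKM, and their summed level was 2144 to 2581 FPKM with PD325901, 3466 to 3630 FPKM with RAD001, 2727 to 3045 FPKM with GDC0941 and 1901 to 2008 FPKM with DMSO. Not every marker followed the sum. Itgam and Fcgr3 averaged 228 and 244 FPKM with PD325901 and 336 and 381 FPKM with DMSO. Other markers were higher with PD325901, such as Cd68 at 925 FPKM beside 654 FPKM with DMSO. Mpo averaged 19.4 FPKM with PD325901, 2.25 FPKM with RAD001, 3.94 FPKM with GDC0941 and 23.1 FPKM with DMSO. Summed markers of T and NK cells (7 genes), B cells (5) and erythroid cells (5) stayed at or under 9.81 FPKM in every library, with the B cell factor Pax5 at 0 throughout. Of these only Cd3d and Cd79b averaged at least 1 FPKM. The T and NK cell sum was 5.06 to 9.81 FPKM with PD325901 and 0.442 to 5.55 FPKM with DMSO. With RAD001 it was 0.313 to 3.58 FPKM and with GDC0941 0.0605 to 1.66 FPKM. The B cell sum was 6.76 to 8.13 FPKM with PD325901 and 4.59 to 5.96 FPKM with DMSO. With RAD001 it was 0.961 to 2.13 FPKM and with GDC0941 0.643 to 2.23 FPKM. Of 5 megakaryocyte markers only Pf4 averaged at least 1 FPKM, and their sum was 11.1 to 35.7 FPKM with PD325901, 215 to 278 FPKM with RAD001, 4.06 to 4.99 FPKM with GDC0941 and 77.1 to 133 FPKM with DMSO. Of 7 stromal and endothelial markers only Pecam1 averaged at least 1 FPKM, and their sum was 7.75 to 11.2 FPKM with PD325901, 6.98 to 8.41 FPKM with RAD001, 1.94 to 2.63 FPKM with GDC0941 and 12.8 to 17.5 FPKM with DMSO. These sums move with the groups, and their part in the Dusp differences was not tested.

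Dusp6, Dusp5 and Dusp16 were the 3 genes whose RNA was higher with RAD001, so the sequence before their starts is shown. RefSeq promoters on the GRCm38.p6 build, a later build than the mm9 used by the authors, were available for 8 of the 9 genes, all but Dusp4. The 250 bases before each annotated start were searched on both strands for 8 motifs. The ETS site was read only in the longer form CCGGAA, not as the shorter core GGAA, and the AP-1 site as TGACTCA. The core of the cAMP response element (CRE) was read as TGACG and the TATA box as TATAAA. The GC box was read as GGGCGG and the E-box of MYC as CACGTG. The FOXO site was read as TGTTTAC, and the CArG box by its usual form. Capitals mark every match within the printed stretch.
Dusp6, chr10:99262981-99263230, plus strand: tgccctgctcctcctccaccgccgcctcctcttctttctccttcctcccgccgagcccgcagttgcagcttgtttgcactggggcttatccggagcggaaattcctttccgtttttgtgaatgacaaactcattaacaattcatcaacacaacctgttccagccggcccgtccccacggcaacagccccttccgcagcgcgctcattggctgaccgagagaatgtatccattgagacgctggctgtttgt
Dusp5, chr19:53528895-53529108, plus strand: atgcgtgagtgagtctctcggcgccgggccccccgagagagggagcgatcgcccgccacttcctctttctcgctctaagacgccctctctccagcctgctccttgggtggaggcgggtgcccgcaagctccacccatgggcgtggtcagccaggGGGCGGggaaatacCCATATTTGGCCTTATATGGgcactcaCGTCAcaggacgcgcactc
Dusp16, chr6:134792629-134792878, minus strand: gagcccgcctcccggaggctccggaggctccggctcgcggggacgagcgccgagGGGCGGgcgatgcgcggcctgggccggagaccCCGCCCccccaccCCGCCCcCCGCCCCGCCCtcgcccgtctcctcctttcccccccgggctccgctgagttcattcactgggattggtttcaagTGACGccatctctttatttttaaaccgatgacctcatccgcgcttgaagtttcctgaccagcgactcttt
The Dusp5 stretch leaves out the 36 bases next to the RefSeq start, which the GENCODE annotation counts as transcribed. The search took in these bases too, and all matches in Dusp5 lay within the printed stretch. It held 2 adjoining CArG boxes, beginning 82 and 72 bases before the RefSeq start, a motif present in the 250 bases before the start of 1.47% of 32851 promoters. A CArG box is the sequence bound by serum response factor. The CRE core occurred once in the Dusp5 and once in the Dusp16 stretch and is present in 17.8% of promoters, and the GC box occurred once in Dusp5 and 5 times in Dusp16 and is present in 32.7%. None of the 8 motifs was found in the Dusp6 stretch, which says only that these letters are not in this window. Among the genes not printed, Dusp1 held 3 CRE core matches, 3 GC boxes and an E-box. Dusp2 held 3 GC boxes and an E-box, Dusp3 held 3 GC boxes, Dusp10 held 2 and Dusp7 held no match. The E-box is present in 6.02% of promoters. CCGGAA, AP-1, TATA and FOXO matches were found in none of the 8, and occur in 12%, 4.46%, 12.4% and 3.17% of promoters. The shorter GGAA was not searched for, and each printed stretch holds it when both strands are read.

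**Figure D1:**
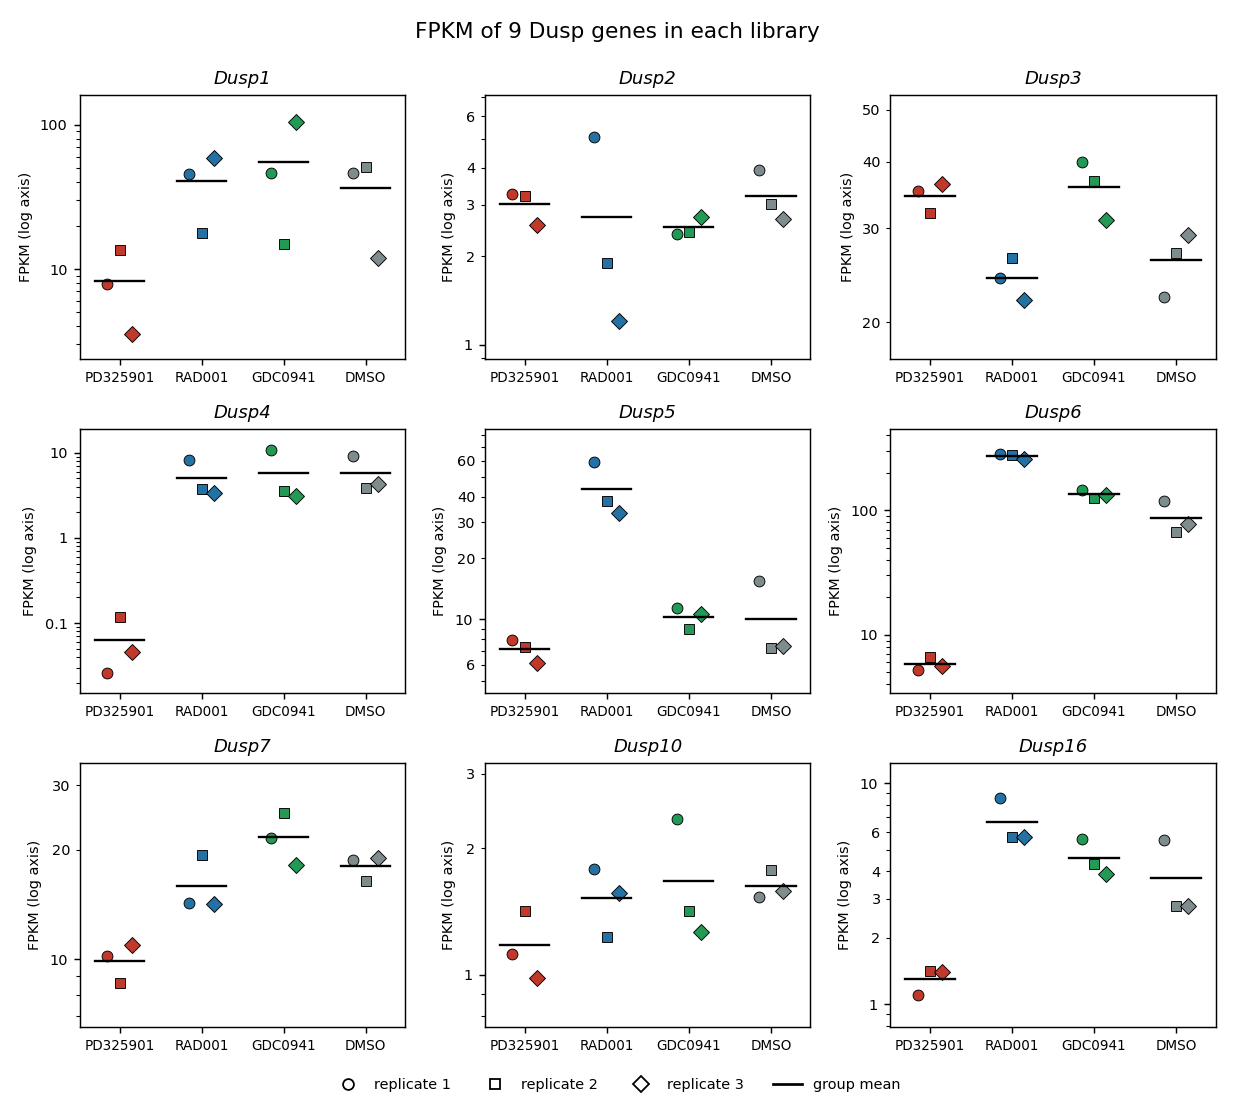
FPKM of each of the 9 Dusp genes (log axis, a separate scale in each panel) in the 3 libraries of each group, with symbols for the replicate number and a bar at the group mean. Dusp6 is lowest with PD325901, at 5.24 to 6.67 FPKM, and highest with RAD001, at 259 to 285 FPKM, while Dusp2 and Dusp10 overlap between most groups.

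Dusp6, the ERK phosphatase of the cytoplasm, separated all 4 groups. Its level was 5.24, 6.67 and 5.63 FPKM with PD325901, 285, 280.5 and 259 FPKM with RAD001, 147, 126 and 133 FPKM with GDC0941, and 118, 66.7 and 78.3 FPKM with DMSO. No library of one group overlapped with another group, and the order was RAD001, GDC0941, DMSO and PD325901 from high to low. The log2 change, taken after adding 1 FPKM, was -3.66 ± 0.17 (SE) for PD325901 against DMSO (limma adjusted p = 2.40e-07), the 19th largest fall among 10305 genes. For RAD001 against DMSO it was 1.68 ± 0.17 (limma adjusted p = 7.74e-05), a ratio of mean FPKM of 3.13. For GDC0941 against DMSO it was 0.66 ± 0.17 (limma adjusted p = 0.0164), a ratio of 1.54. The GDC0941 call ended without DMSO replicate 2 (0.48, adjusted p = 0.0655) or DMSO replicate 3 (0.60, 0.0635), and with only the 2 groups in the limma model (0.0623).

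Dusp7, the other cytoplasmic ERK phosphatase of the list, differed over a narrower range. It stood at 10.2, 8.61 and 11.0 FPKM with PD325901, 14.2, 19.3 and 14.2 FPKM with RAD001, 21.5, 25.2 and 18.1 FPKM with GDC0941, and 18.7, 16.4 and 18.9 FPKM with DMSO. Every PD325901 library was below every other library, and RAD001 and GDC0941 libraries overlapped with DMSO libraries. With PD325901 Dusp7 fell, by 0.80 ± 0.14 on the log2 scale against DMSO (limma adjusted p = 0.00102). With RAD001 the difference from DMSO was -0.18 (95% interval -0.50 to 0.14) and with GDC0941 it was 0.24 (-0.07 to 0.56), neither past the threshold of limma (adjusted p = 0.366 and 0.252). Whether Dusp7 and Dusp6 differed in their response was not tested.

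Among the nuclear, inducible enzymes, Dusp4, which acts on ERK, JNK and p38, was close to 0 with PD325901 and present in all other libraries. It stood at 0.0258, 0.119 and 0.0452 FPKM with PD325901, 8.22, 3.73 and 3.34 FPKM with RAD001, 10.8, 3.50 and 3.13 FPKM with GDC0941, and 9.19, 3.83 and 4.33 FPKM with DMSO. Replicate 1 was the highest library in the RAD001, GDC0941 and DMSO groups, which overlapped fully with each other. The log2 change for PD325901 against DMSO was -2.59 ± 0.42 (limma adjusted p = 0.000511). Its size rested on the value added before the logarithm, and was -5.10 with 0.1 FPKM and -1.06 with 5 FPKM added. For RAD001 and GDC0941 against DMSO the 95% intervals were -1.07 to 0.76 and -0.998 to 0.83.

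Dusp5, a nuclear phosphatase specific for ERK, was the member with the largest rise in RAD001 cells. It stood at 7.94, 7.35 and 6.13 FPKM with PD325901, 59.2, 38.2 and 33.3 FPKM with RAD001, 11.4, 8.95 and 10.6 FPKM with GDC0941, and 15.5, 7.21 and 7.40 FPKM with DMSO. All RAD001 libraries were above all others, and PD325901 and GDC0941 each overlapped with DMSO. The log2 change for RAD001 against DMSO was 2.05 ± 0.27 (limma adjusted p = 0.000296), the 50th largest rise among 10305 genes and a ratio of mean FPKM of 4.34. For PD325901 it was -0.37 (95% interval -0.95 to 0.22, limma adjusted p = 0.282) and for GDC0941 0.11 (-0.47 to 0.69, adjusted p = 0.803). The GDC0941 difference passed without replicate 1 of every group (0.37, limma adjusted p = 0.0277).

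Dusp1, an immediate early gene whose product acts on p38, JNK and ERK, had the widest spread within groups, with an SE of 0.74 on the log2 scale in each comparison. It stood at 7.83, 13.5 and 3.55 FPKM with PD325901, 45.4, 17.9 and 58.8 FPKM with RAD001, 46.5, 14.8 and 105.0 FPKM with GDC0941, and 46.3, 51.2 and 11.9 FPKM with DMSO. PD325901 libraries were the lowest on average, but PD325901 replicate 2 lay above DMSO replicate 3. The log2 difference for PD325901 against DMSO was -1.92 (95% interval -3.56 to -0.29) and missed the threshold of limma after adjustment (adjusted p = 0.0529). On all libraries it passed with 0.1 FPKM added (-2.06, limma adjusted p = 0.0488), with only the 2 groups in the model (0.0313) and with library weights (-1.70, 0.0374). It also passed without DMSO replicate 3 (-2.57, limma adjusted p = 0.0199), PD325901 replicate 2 (-2.32, 0.0484) or replicate 3 of every group (-2.13, 0.0384). Under the other settings tried it did not pass, among them 5 FPKM added (-1.53, limma adjusted p = 0.0702). The RAD001 and GDC0941 differences from DMSO were 0.24 (-1.39 to 1.87) and 0.44 (-1.19 to 2.08).

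Dusp2, an inducible nuclear phosphatase of leukocytes, showed no difference past the threshold. It stood at 3.27, 3.21 and 2.55 FPKM with PD325901, 5.08, 1.90 and 1.20 FPKM with RAD001, 2.39, 2.42 and 2.72 FPKM with GDC0941, and 3.92, 3.02 and 2.69 FPKM with DMSO. RAD001 replicate 1 was the highest of all libraries, and the other 2 RAD001 libraries were the lowest. The RAD001 difference from DMSO was -0.30 ± 0.29 on the log2 scale (limma adjusted p = 0.444), and -0.73 without RAD001 replicate 1 (adjusted p = 0.00661). With libraries weighted by their quality it was -0.45 (adjusted p = 0.00855).

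Of the phosphatases that prefer JNK and p38, Dusp16 fell with PD325901 and rose with RAD001, as Dusp6 did. It stood at 1.10, 1.42 and 1.40 FPKM with PD325901, 8.58, 5.71 and 5.71 FPKM with RAD001, 5.60, 4.30 and 3.89 FPKM with GDC0941, and 5.56, 2.79 and 2.78 FPKM with DMSO. PD325901 was below and RAD001 above every DMSO library, while GDC0941 overlapped with DMSO. The log2 change was -0.98 ± 0.22 for PD325901 (limma adjusted p = 0.00360) and 0.73 ± 0.22 for RAD001 (limma adjusted p = 0.0255). The RAD001 call ended without RAD001 replicate 1 (0.56, adjusted p = 0.0801), DMSO replicate 2 (0.60, 0.102) or DMSO replicate 3 (0.60, 0.101), and with only the 2 groups in the model (0.0682). Replicate 1 was the highest Dusp16 library with RAD001, GDC0941 and DMSO.

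Dusp10, also called MKP5 and a phosphatase of JNK and p38, was the least abundant member in the DMSO group. It stood at 1.12, 1.42 and 0.983 FPKM with PD325901, 1.78, 1.23 and 1.56 FPKM with RAD001, 2.35, 1.41 and 1.26 FPKM with GDC0941, and 1.53, 1.77 and 1.58 FPKM with DMSO. The PD325901 libraries were all below the DMSO libraries, and the other groups overlapped with them. The PD325901 difference was -0.28 (95% interval -0.61 to 0.06, limma adjusted p = 0.160), and no comparison passed for Dusp10 in the limma model without library weights or quantile normalization. With library weights the PD325901 difference passed (-0.31, adjusted p = 0.0132), and with quantile normalization so did PD325901 against GDC0941 (-0.36, 0.0422).

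Dusp3, the small atypical phosphatase known as VHR, which can act on ERK and JNK, was the member that rose with PD325901. It stood at 35.2, 32.1 and 36.3 FPKM with PD325901, 24.2, 26.5 and 22.0 FPKM with RAD001, 39.9, 36.7 and 31.1 FPKM with GDC0941, and 22.4, 27.0 and 29.1 FPKM with DMSO. PD325901 and GDC0941 libraries were all above the DMSO libraries, and RAD001 libraries overlapped with them. The log2 change was 0.40 ± 0.12 for PD325901 (limma adjusted p = 0.0172) and 0.44 ± 0.12 for GDC0941 (limma adjusted p = 0.0187), ratios of mean FPKM of 1.32 and 1.37. The PD325901 call ended without DMSO replicate 1 (0.29, adjusted p = 0.0696) or PD325901 replicate 3 (0.36, 0.0605). The GDC0941 call ended without DMSO replicate 1 (0.34, adjusted p = 0.0677) or GDC0941 replicate 2 (0.42, 0.0568), and with only the 2 groups in the model (0.0620).

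**Figure D2:**
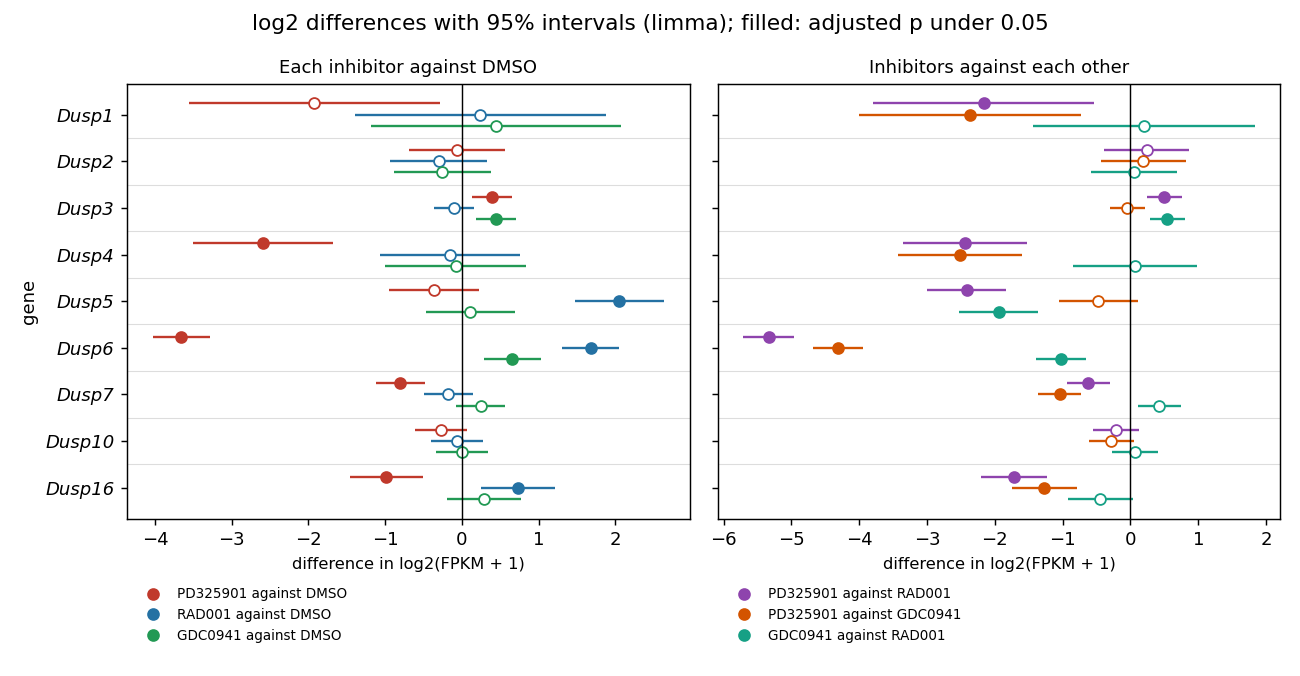
Differences in log2(FPKM + 1) of the 9 Dusp genes with 95% intervals from limma, each inhibitor against DMSO on the left and inhibitors against each other on the right; filled points have an adjusted p under 0.05. Dusp6 lies at -3.66, 1.68 and 0.66 against DMSO with PD325901, RAD001 and GDC0941, and intervals of Dusp1 are the widest.

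Counted over the 9 genes, PD325901 against DMSO gave 4 falls (Dusp4, Dusp6, Dusp7 and Dusp16) and 1 rise (Dusp3), with 4 not past the threshold. Over all genes tested 28.2% fell and 18.4% rose, 46.6% together, so the number called among the 9 is near that of genes at large. The median log2 change was -0.80 over the 9 genes and -0.06 over all genes tested. For 5 genes every PD325901 library was below every DMSO library, as for 36.9% of all genes, and for 1 every library was above, as for 25.8%. RAD001 against DMSO gave 3 rises (Dusp5, Dusp6 and Dusp16) and no fall by limma, beside 15.4% rising and 15.9% falling over all genes, 31.3% together. Of the members with a difference below 0, 0 had an unadjusted p under 0.05. For 3 genes every RAD001 library was above every DMSO library, as for 25.3% of all genes. The median was -0.06 for the 9 genes and 0.00 for all. GDC0941 against DMSO gave 2 rises (Dusp3 and Dusp6) and no fall, beside 11.6% rising and 12.7% falling, 24.3% together, and 0 of the members below DMSO had an unadjusted p under 0.05. The medians were 0.24 for the 9 genes and 0.02 for all. For 2 genes every GDC0941 library was above every DMSO library and for 0 below, as for 20.3% and 18.3% of all genes. The shares called with RAD001 and GDC0941 are also near those of genes at large. The 3 comparisons share the DMSO libraries, so their values are given side by side and not correlated.

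The inhibitors, which act on different kinases, were also compared with each other in the same limma model, at the doses given above, which the labels do not say were matched for potency. PD325901 against RAD001 called 7 of 9 genes, 6 lower and 1 higher, beside 29.4% lower and 20.8% higher over all genes, 50.2% together. The 6 lower genes were Dusp6 (-5.34 ± 0.17), Dusp4 (-2.43 ± 0.42), Dusp5 (-2.42 ± 0.27), Dusp1 (-2.16 ± 0.74), Dusp16 (-1.72 ± 0.22) and Dusp7 (-0.62 ± 0.14), and Dusp3 was higher (0.50 ± 0.12). The groups did not overlap for the same 7, beside 35.9% of all genes below and 26.6% above. Dusp6 averaged 5.85 ± 0.737 FPKM with PD325901 and 275 ± 14.1 FPKM with RAD001 (SD, n = 3 each), the 14th largest fall of 10305 genes (limma adjusted p = 4.67e-09). The Dusp1 call (limma adjusted p = 0.0305) ended without PD325901 replicate 1 or 3 or RAD001 replicate 1 or 3 (0.0634 to 0.114), without replicate 1 or 3 of every group (0.104 and 0.115), and with no filter on low values (0.0563). The Dusp3 call ended without replicate 3 of every group (0.40, adjusted p = 0.0528). Dusp2 passed without RAD001 replicate 1 (0.66, adjusted p = 0.00624) and with library weights (0.43, 0.0150).

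PD325901 against GDC0941 called 5 of 9 genes, all lower, beside 30.7% lower and 20.9% higher over all genes, 51.5% together. They were Dusp6 (-4.31 ± 0.17), Dusp4 (-2.51 ± 0.42), Dusp1 (-2.37 ± 0.74), Dusp16 (-1.27 ± 0.22) and Dusp7 (-1.05 ± 0.14), with limma adjusted p of 3.27e-08, 0.000441, 0.0199, 0.000563 and 0.000120. For these 5 and Dusp5 every PD325901 library was below every GDC0941 library, as for 33.5% of all genes, and for 0 above, as for 23.2%. The Dusp1 call ended without PD325901 replicate 3 (-1.93, adjusted p = 0.0796) or GDC0941 replicate 3 (-1.72, 0.0840), without replicate 1 or 3 of every group (0.0672 and 0.138), and with library weights (-1.98, 0.107). Dusp3, higher in both groups than with DMSO, differed between them by -0.05 (95% interval -0.31 to 0.21).

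GDC0941 against RAD001 called 3 of 9 genes, Dusp5 (-1.94 ± 0.27, limma adjusted p = 0.000724) and Dusp6 (-1.02 ± 0.17, 0.00255) lower and Dusp3 (0.54 ± 0.12, 0.0104) higher. Over all genes 9.35% were lower and 8.09% higher, 17.4% together. Dusp5 averaged 10.3 ± 1.25 FPKM with GDC0941 and 43.6 ± 13.8 FPKM with RAD001 (SD, n = 3 each). Every GDC0941 library was below every RAD001 library for Dusp5, Dusp6 and Dusp16, as for 14.9% of all genes, though Dusp16 did not pass (-0.45, 95% interval -0.93 to 0.04). For Dusp3 every GDC0941 library was above, as for 17.3%. Without replicate 2 of every group none of the 3 calls held (adjusted p = 0.0528, 0.0620 and 0.137 for Dusp5, Dusp6 and Dusp3), and without replicate 3 of every group those of Dusp6 (0.0993) and Dusp3 (0.0804) ended. Dusp7 was 0.42 higher with GDC0941 on the log2 scale (0.11 to 0.74), with a limma adjusted p of 0.0647. It passed without RAD001 replicate 2 (0.56, limma adjusted p = 0.0341) or GDC0941 replicate 3 (0.54, 0.0394). Without replicate 1 of every group, Dusp16 (-0.40, limma adjusted p = 0.00938) and Dusp2 (0.50, 0.0295) passed.

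**Figure D3:**
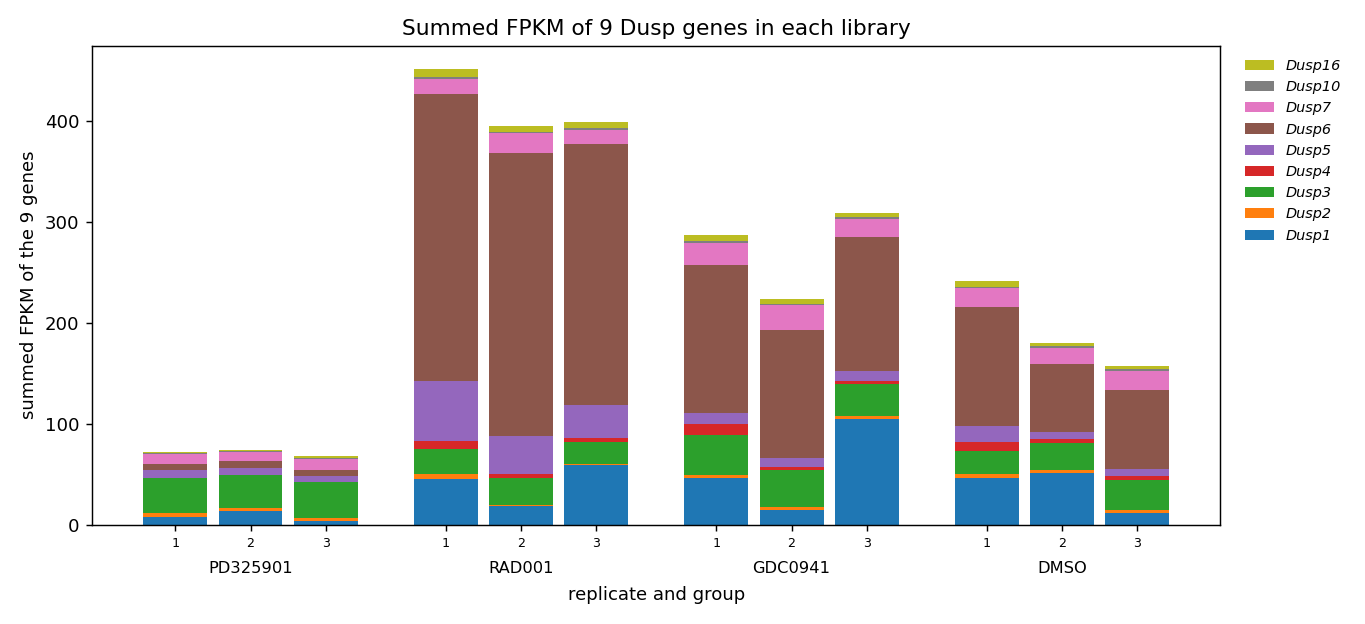
Summed FPKM of the 9 Dusp genes in each library, stacked by gene, with replicate numbers under the bars. The sums are 67.6 to 74.4 FPKM with PD325901, 395 to 452 with RAD001, 223 to 308 with GDC0941 and 157 to 241 with DMSO, and Dusp6 is the largest part in every library without PD325901.

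The make-up of the family, as each gene's share of the summed FPKM, differed most with PD325901. The sum averaged 71.3 ± 3.46 FPKM with PD325901, 415 ± 31.8 FPKM with RAD001, 273 ± 44.2 FPKM with GDC0941 and 193 ± 43.5 FPKM with DMSO (SD, n = 3 each). Dusp6 made up 7.29% to 8.97% of it with PD325901, 63.1% to 71.0% with RAD001, 43.0% to 56.4% with GDC0941 and 37.1% to 49.9% with DMSO. Dusp3 made up 43.2% to 53.8% with PD325901, 5.36% to 6.70% with RAD001, 10.1% to 16.5% with GDC0941 and 9.28% to 18.5% with DMSO. Dusp3 was thus the most abundant member with PD325901 and Dusp6 in the other 3 groups. Dusp1 ranged most widely within a group, from 6.64% to 34.1% with GDC0941.

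**Figure D4:**
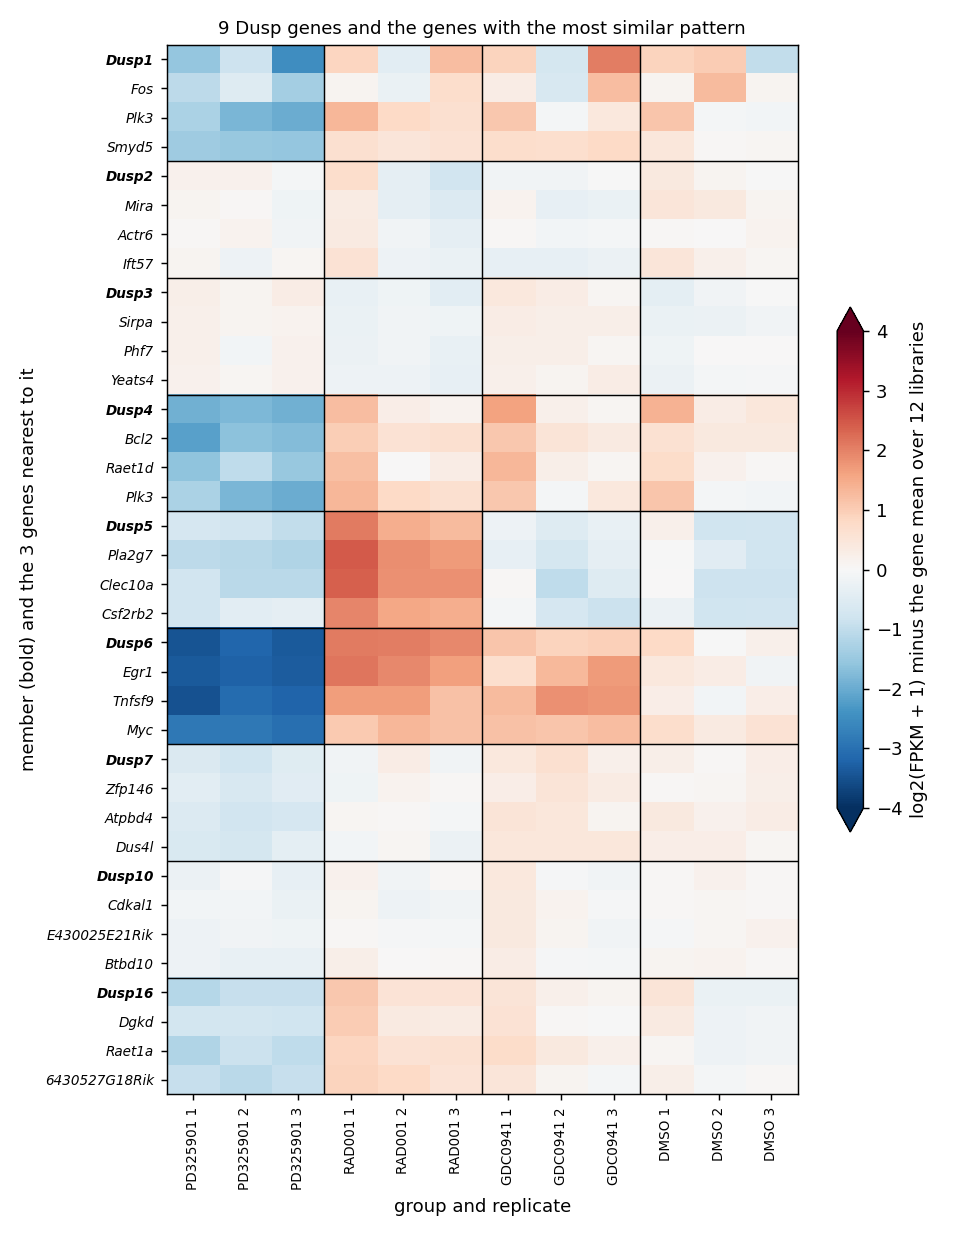
Values of log2(FPKM + 1), centred on each gene's mean over the 12 libraries, for each of the 9 Dusp genes (bold) and the 3 genes nearest to it, with libraries in columns by group. The Dusp6 block is low in the PD325901 columns, where Dusp6 averages 5.85 FPKM, and the Dusp5 block is high in the RAD001 columns, where Dusp5 averages 43.6 FPKM.

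The genes whose pattern was most like that of each member were found by the root mean square difference of centred log2 values over the 12 libraries, where 0 would be an identical pattern. Nearest to Dusp6, whose own values spread by 2.02 on this scale, were Egr1, an immediate early transcription factor (difference 0.340), the TNF family ligand Tnfsf9 (0.479) and the growth regulator Myc (0.504). Egr1 averaged 0.456 FPKM with PD325901, 53.2 FPKM with RAD001, 34.0 FPKM with GDC0941 and 15.6 FPKM with DMSO, the same order as Dusp6. Nearest to Dusp5 (own spread 0.990) were the phospholipase Pla2g7 (0.287), the lectin Clec10a (0.294) and the cytokine receptor gene Csf2rb2 (0.309). Pla2g7 averaged 8.24 FPKM with PD325901, 81.4 FPKM with RAD001, 13.7 FPKM with GDC0941 and 14.3 FPKM with DMSO. Nearest to Dusp4 (own spread 1.19) were the survival gene Bcl2 (0.362), Raet1d, a ligand of an NK cell receptor (0.367), and the kinase Plk3 (0.404).

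Nearest to Dusp16 (own spread 0.676) were the diacylglycerol kinase gene Dgkd (0.176), Raet1a (0.178) and 6430527G18Rik (0.188). Nearest to Dusp1 (own spread 1.29) were the immediate early gene Fos (0.669), Plk3 (0.840) and Smyd5 (0.840). The nearest genes of Dusp3 were the inhibitory receptor gene Sirpa (0.115), Phf7 (0.121) and Yeats4 (0.124), beside an own spread of 0.268. For Dusp7 they were Zfp146 (0.131), Atpbd4 (0.139) and Dus4l (0.142), beside an own spread of 0.417. For Dusp2 and Dusp10, with own spreads of 0.352 and 0.193, the nearest were Mira, Actr6 and Ift57 (0.204 to 0.226) and Cdkal1, E430025E21Rik and Btbd10 (0.0957 to 0.106). Raet1d and Raet1a are members of a family of closely similar genes, so reads may be split between them.

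Of 16 other genes of the dual-specificity phosphatase family, 7 passed the filter, and 2 rose and 3 fell with PD325901, 2 fell with RAD001, and none was called with GDC0941 by limma, where 1 (Dusp12) had an unadjusted p under 0.05 (0.0410). Over all genes tested 46.6% were called with PD325901, 31.3% with RAD001 and 24.3% with GDC0941. Dusp22, an atypical phosphatase linked to JNK signalling, moved opposite to Dusp6 with PD325901 and RAD001. It stood at 17.7, 19.7 and 19.5 FPKM with PD325901, 2.94, 4.56 and 3.84 FPKM with RAD001, 6.81, 10.1 and 11.0 FPKM with GDC0941, and 6.96, 9.65 and 8.68 FPKM with DMSO. PD325901 libraries were above and RAD001 libraries below all DMSO libraries. The log2 change was 1.09 ± 0.17 with PD325901 (limma adjusted p = 0.000492) and -0.98 ± 0.17 with RAD001 (limma adjusted p = 0.00172), and 0.11 ± 0.17 with GDC0941. Dusp28 moved likewise, by 0.66 ± 0.10 with PD325901 and -0.38 ± 0.10 with RAD001 (limma adjusted p = 0.000494 and 0.0175). Dusp19 (-0.66 ± 0.21) and the catalytically inactive Styx (-0.27 ± 0.09) fell with PD325901. Dusp11, the gene of this list highest in level, differed from DMSO by 0.05 ± 0.09 with GDC0941 (limma adjusted p = 0.733). Dusp9, the third cytoplasmic ERK phosphatase, and Dusp8, a JNK phosphatase, averaged 0.585 and 0.102 FPKM over the 12 libraries and were not tested.

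Among 13 genes of the MAP kinase family, which includes the substrates of these enzymes, 9 passed the filter. With PD325901 4 rose and 2 fell, with RAD001 1 rose, and with GDC0941 1 rose and 1 fell, beside 46.6%, 31.3% and 24.3% of all genes called in either direction. Mapk3, which encodes ERK1, rose with all 3 inhibitors, by 0.82 ± 0.10, 0.43 ± 0.10 and 0.41 ± 0.10 on the log2 scale with PD325901, RAD001 and GDC0941 (limma adjusted p = 9.41e-05, 0.00825 and 0.0138). Mapk13, a p38 kinase gene, rose with PD325901 (1.21 ± 0.26, limma adjusted p = 0.00317) and fell with GDC0941 (-1.42 ± 0.26, 0.00304). It averaged 41.6 ± 9.64 FPKM with PD325901, 6.19 ± 2.91 FPKM with GDC0941 and 17.2 ± 1.88 FPKM with DMSO (SD, n = 3 each). Mapk14, the main p38 kinase gene (0.34 ± 0.06), and Mapk7, which encodes ERK5 (0.63 ± 0.13), also rose with PD325901.

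Of 9 other genes that restrain MAP kinases, 7 passed the filter, 3 fell with PD325901, 2 rose with RAD001 and 2 rose with GDC0941. In either direction these counts are near the 46.6%, 31.3% and 24.3% of all genes called. By direction, 28.2% of all genes fell with PD325901, 15.4% rose with RAD001 and 11.6% rose with GDC0941. Of the 7 genes, 0 rose with PD325901 and 0 fell with RAD001 or GDC0941. Ptpn7, a tyrosine phosphatase of haematopoietic cells that acts on ERK and p38, fell with PD325901 and rose with RAD001. It stood at 12.99, 12.8 and 14.6 FPKM with PD325901, 43.5, 42.7 and 39.3 FPKM with RAD001, 32.9, 32.5 and 26.4 FPKM with GDC0941, and 33.8, 27.9 and 28.8 FPKM with DMSO. The log2 change was -1.11 ± 0.10 with PD325901 and 0.46 ± 0.10 with RAD001 (limma adjusted p = 1.57e-05 and 0.00636). The phosphatase genes Ppm1b (-0.36 ± 0.11) and Ppp2ca (-0.26 ± 0.09) fell with PD325901. Ppp2cb rose with RAD001 (0.75 ± 0.15) and GDC0941 (0.52 ± 0.15), and Ppm1a rose with GDC0941 (0.27 ± 0.08).

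Of 24 feedback and output genes of ERK, 19 passed the filter, and 14 fell and 1 rose with PD325901, 12 rose and 1 fell with RAD001, and 7 rose and 1 fell with GDC0941. Over all genes 28.2% fell and 18.4% rose with PD325901, 15.4% rose and 15.9% fell with RAD001, and 11.6% rose and 12.7% fell with GDC0941. Their median log2 change was -1.72, 0.64 and 0.25, beside -0.06, 0.00 and 0.02 over all genes tested. With PD325901 the smallest adjusted p belonged to Myc (-3.47 ± 0.10), Etv5 (-4.14 ± 0.19), Epha2 (-1.72 ± 0.11) and Egr1 (-3.49 ± 0.23). With RAD001 they belonged to Phlda1 (2.55 ± 0.26), Egr1 (1.71 ± 0.23), Egr2 (2.41 ± 0.33) and Fosl1 (1.59 ± 0.23). With GDC0941 the receptor gene Epha2 fell (-1.16 ± 0.11), while Egr2 (2.59 ± 0.33), Etv1 (0.99 ± 0.13) and Phlda1 (1.73 ± 0.26) rose.

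Of 10 genes upstream of JNK and p38, 9 passed the filter. With PD325901 4 rose and 0 fell, with RAD001 1 rose and 2 fell, and with GDC0941 2 rose and 0 fell. In either direction these counts are near the 46.6%, 31.3% and 24.3% of all genes called. By direction, 18.4% of all genes rose and 28.2% fell with PD325901. With RAD001 15.4% rose and 15.9% fell, and with GDC0941 11.6% rose and 12.7% fell. Gadd45g and Gadd45b, which bind and activate a kinase of the JNK and p38 cascade, rose with PD325901 (1.72 ± 0.22 and 1.59 ± 0.21) and fell with RAD001 (-0.89 ± 0.22 and -0.85 ± 0.21). The kinase gene Map3k5, or ASK1, rose with PD325901 (0.51 ± 0.17), RAD001 (0.89 ± 0.17) and GDC0941 (0.53 ± 0.17), and Map3k1 with PD325901 (0.57 ± 0.11) and GDC0941 (0.38 ± 0.11).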

How the data were processed

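The authors deposited 1 table of FPKM values for 23234 gene symbols with a column for each of 12 libraries. The tools TopHat2 2.0.4 and Cuffdiff and the build mm9 come from the submitters' processing notes. Which annotation was counted, and how libraries were scaled to each other, is not given in the sources used here. Library totals ran from 462335 to 587581 FPKM. Read depth is unknown, so no counting error could be given.

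Values were analysed as log2(FPKM + 1) for 10305 genes whose mean over all libraries reached 1 FPKM. With R 4.3.3 and limma 3.58.1, 1 model with 4 group means (8 residual degrees of freedom) was fitted to all libraries with eBayes and a trend. The 6 comparisons were two-sided, with Benjamini-Hochberg adjustment over all genes and a threshold of 0.05. The procedure was tested on simulated data. Replicate numbers were checked for pairing by correlating deviations from group means: all 3 pairs exceeded 0.1 for PD325901 and RAD001 against DMSO (lowest 0.183 and 0.201) and for PD325901 and GDC0941 against RAD001 (0.149 and 0.309), but not for GDC0941 against DMSO (0.0354) or PD325901 against GDC0941 (-0.139). The same number gave the highest correlation for 3 libraries in PD325901 against DMSO and in GDC0941 against RAD001. It did so for 2 in PD325901 against GDC0941 and for 1 in each other comparison. The labels do not say what a number stands for.

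The members and lists were chosen with earlier results of these data known. Named genes are the 9 members, up to 4 called genes from each list in order of adjusted p (where none was called, the 2 highest in level), and the 3 genes nearest to each member. Dusp8, Dusp9, Dusp12, Itgam, Fcgr3, Cd68, Mpo, Cd3d, Cd79b, Pax5, Pf4 and Pecam1 were named outside this rule, after their values were seen. Each Dusp result was recomputed with other pseudocounts, filters, scalings and models, and without single libraries. Promoter sequences are from RefSeq.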

Additional observations from a re-analysis of the deposited data

How the results depend on the processing

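All 25 differences called among the 9 Dusp genes kept their direction with 0.1 or 5 FPKM added in place of 1 FPKM and under median-ratio and quantile scaling. With a filter at 5 FPKM, which 5 of the 9 genes passed, 3 were called for PD325901 against DMSO and 3 for PD325901 against GDC0941, beside 3750 and 4196 of all genes. With only the 2 groups in the model, 0 of the Dusp genes and 1737 of all genes were called for GDC0941 against DMSO. For GDC0941 against RAD001, 3 of the Dusp genes and 701 of all genes were called. With library weights, 6923 genes were called for RAD001 against DMSO, 3849 for GDC0941 against DMSO and 3048 for GDC0941 against RAD001. Differences that turned their sign, none of them called, were as follows. With quantile scaling Dusp2 was at 0.072 for PD325901 against DMSO, Dusp10 at 0.11 for RAD001 against DMSO, Dusp4 at 0.0031 for GDC0941 against DMSO and Dusp3 at 0.032 for PD325901 against GDC0941, the last also at 0.0044 with median-ratio scaling. With library weights Dusp7 was at 0.013 for RAD001 against DMSO and Dusp10 at -0.096 for GDC0941 against DMSO, the last also at -0.0090 with 0.1 FPKM added. With 5 FPKM added Dusp2 was at -0.0095 for GDC0941 against RAD001. The cause was not tested.

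With 1 library, or 1 replicate number of every group, left out, the Dusp genes called numbered 4 to 6 for PD325901 against DMSO, 2 to 4 for RAD001 against DMSO, 0 to 3 for GDC0941 against DMSO, 5 to 7 for PD325901 against RAD001, 4 to 5 for PD325901 against GDC0941 and 0 to 5 for GDC0941 against RAD001. All genes called numbered 2272 to 5649, 541 to 4806, 206 to 4281, 2959 to 5897, 3174 to 6064 and 195 to 3413 in the same order. Against DMSO, leaving out replicate 1 of every group ended the Dusp3 calls with PD325901 (adjusted p = 0.0648) and GDC0941 (0.0940). Leaving out replicate 2 ended the Dusp3 calls (0.0860 and 0.186), Dusp16 with RAD001 (0.218) and Dusp6 with GDC0941 (0.173), and leaving out replicate 3 ended the last 2 (0.188 and 0.216). The log2 ranges of differences that turned their sign in this way were -0.16 to 0.053 for Dusp2 with PD325901 against DMSO. For RAD001 against DMSO they were -0.75 to 1.09 for Dusp1, -0.73 to 0.0065 for Dusp2, -0.21 to 0.042 for Dusp3, -0.50 to 0.18 for Dusp4 and -0.16 to 0.062 for Dusp10. For GDC0941 against DMSO they were -0.86 to 1.52 for Dusp1, -0.57 to 0.25 for Dusp4, -0.067 to 0.44 for Dusp5 and -0.19 to 0.11 for Dusp10. They were -0.072 to 0.66 for Dusp2 with PD325901 against RAD001 and -0.18 to 0.029 for Dusp3 with PD325901 against GDC0941. For GDC0941 against RAD001 they were -0.45 to 0.92 for Dusp1, -0.30 to 0.50 for Dusp2, -0.41 to 0.41 for Dusp4 and -0.11 to 0.19 for Dusp10.

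With the replicate number as a block, 5, 3, 2, 7, 6 and 3 of the Dusp genes were called in the same order of comparisons, and 5241, 3712, 2956, 5572, 5617 and 2307 of all genes. The block added Dusp5 for PD325901 against GDC0941 (-0.48, limma adjusted p = 0.0364) and changed no other call among the 9. In that comparison not all 3 pairs of replicate numbers exceeded a correlation of 0.1. The Dusp5 difference also passed with only the 2 groups in the model (limma adjusted p = 0.0206) and without replicate 1 of every group (0.00565). Read depth is unknown, so the precision of the lowest values, those of Dusp4 with PD325901 above all, could not be given.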

Other observations

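Replicate 1 was the highest library of its group for 6 of the 9 Dusp genes with RAD001 (Dusp2, Dusp4, Dusp5, Dusp6, Dusp10 and Dusp16), for 6 with GDC0941 (Dusp3, Dusp4, Dusp5, Dusp6, Dusp10 and Dusp16), and for 5 with DMSO (Dusp2, Dusp4, Dusp5, Dusp6 and Dusp16). With PD325901 it was the highest for 2 (Dusp2 and Dusp5). Over the 10305 genes tested, replicate 1 was the highest for 48.1% with PD325901, 45.4% with RAD001, 47.5% with GDC0941 and 41.8% with DMSO. What the replicate number stands for is not in the labels.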
